A study of Mus musculus with 18 samples.

Results

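Long constitutive blocks of lamina-bound, H3K9me2-marked chromatin are described here in mouse embryonic stem cells (ESC) and in cardiomyocytes (CM) made from them. A block is an unbroken stretch of 500 kb or more on an autosome that lay inside the Lamin B domains of both cell types and inside the H3K9me2 domains of both. Constitutive here means only that the ESC and CM lists share the sequence, as no other cell type was profiled. The members were chosen by the 4 domain lists themselves, so their coverage by these lists is given by the rule and is not a result. There were 381 blocks among 1226 stretches of any length inside all 4 lists, of which 1084 lay on autosomes. Coordinates are those of the mouse build mm9.

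The study mapped chromatin at the nuclear lamina during heart cell differentiation, with 18 ChIP-seq libraries in all. Wild-type ESC were kept without feeder cells in serum-free medium with LIF, CHIR and PD325901, and gave 2 Lamin B and 2 H3K9me2 libraries. Wild-type CM were collected on day 10 from embryoid bodies treated with VEGF, Activin A and BMP4 and then with VEGF, bFGF and XAV, and gave 2 libraries per antibody. A further ESC line, CMV-creERT; Hdac3f/f, was derived from blastocysts and carries floxed alleles of the histone deacetylase Hdac3 and a Cre that tamoxifen switches on. Uninduced, this line was profiled for Lamin B (2 libraries) and for H3K9me2 (2), and after 24 h in 1 µg/ml tamoxifen, which deletes Hdac3, for Lamin B only (2). Each of these 4 states had 1 input library. The labels give no sorting of the CM, so other cells of the embryoid bodies may be present, and domain positions hold no marker gene levels by which the cell types could be checked.

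A list stands for more than 1 library. The labels of 6 libraries point to the list of ESC Lamin B domains, those of the floxed and the Hdac3-deleted cells included. Those of 4 libraries, 2 of them from the floxed line, point to the ESC H3K9me2 domains, and those of 2 to each CM list. The sources used here do not say how libraries were combined, so the ESC lists may hold wild-type cells alone or both lines. With no value per library, neither replicate spread nor depth is known. A gap in a list may therefore come from a shallow library as well as from the cells, and nothing below was tested between cell types. Lists also differ in bin width, which was 9 kb for ESC Lamin B, 11 kb for CM Lamin B, 10 kb for ESC H3K9me2 and 20 kb for CM H3K9me2.

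As background, the nuclear lamina is a meshwork of lamin proteins under the inner nuclear membrane, and the sequence it touches forms large lamina-associated domains that are mostly poor in genes and little transcribed. H3K9me2, a dimethylated lysine of histone H3, is deposited mainly by the methyltransferases G9a and GLP and marks much of this peripheral heterochromatin. Lamina contacts that are common to many cell types are called constitutive, and those that change during differentiation are called facultative. Hdac3 can tether chromatin to the lamina.

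The blocks held most of the sequence that was inside all 4 lists. They came to 788.0 Mb, which was 85.7% of the 919.1 Mb of autosomal sequence inside all 4 lists and 33.0% of the autosomal span, measured from the first to the last domain edge on each chromosome. The other 703 autosomal stretches were shorter than 500 kb and came to 131.1 Mb, with a median length of 153 kb. By number the blocks were 35.1% of the stretches (Wilson 95% interval 32.36 to 38.04, counting error only).

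**Figure D1:**
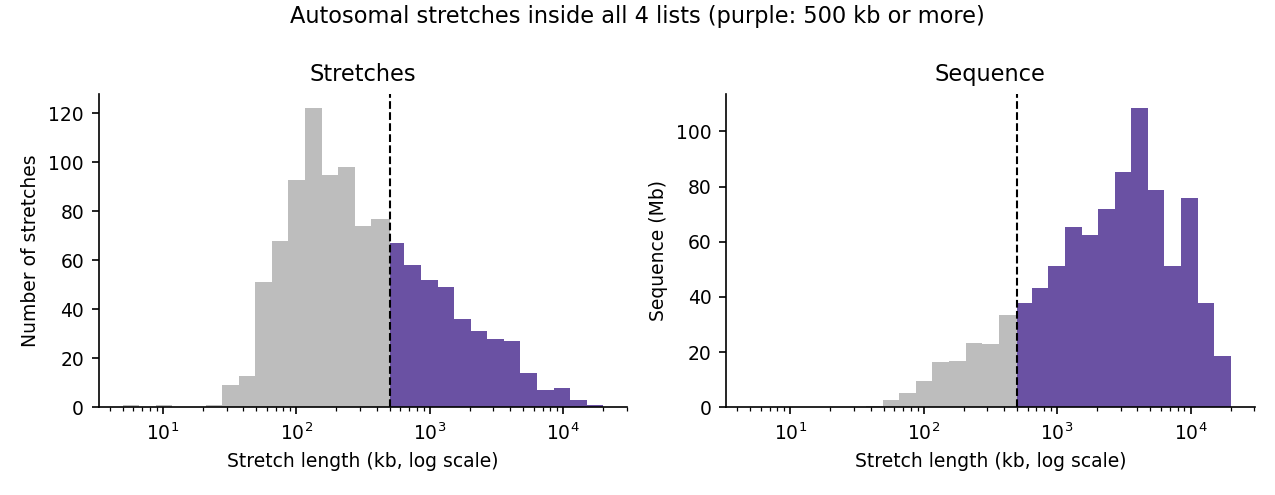
Number (left) and summed sequence in Mb (right) of the 1084 autosomal stretches inside all 4 lists, by length in kb on a log scale, with the dashed line at 500 kb. The 381 blocks, in purple, are fewer than the 703 shorter stretches in grey but hold 788.0 of the 919.1 Mb.

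Block length ranged from 500 kb to 18744 kb, with a median of 1250 kb and quartiles of 747 kb and 2440 kb. The longer blocks carried most of the sequence. The 225 blocks of at least 1 Mb held 86.0% of the block sequence, the 122 of at least 2 Mb held 67.8%, the 32 of at least 5 Mb held 32.7% and the 6 of at least 10 Mb held 9.99%. The 67 longest blocks, each of 3.32 Mb or more, were the fewest that together held 50% of the sequence. The lengths showed no break at the threshold. Just inside it lay chr11:28520001-29020000 and chr15:5330001-5830000, both of 500 kb, and chr19:15114001-15615000 of 501 kb. Just outside lay chr10:11570001-12069000 of 499 kb, and chr4:120923001-121418000 and chr3:98433001-98928000, both of 495 kb.

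The longest block was chr14:80676001-99420000, 18.7 Mb long. It began where the ESC Lamin B domain began, while the CM Lamin B domain started 178 kb farther out, the ESC H3K9me2 domain 416 kb and the CM H3K9me2 domain 496 kb. It stopped at a break of ESC H3K9me2 alone, beyond which the ESC Lamin B, CM Lamin B and CM H3K9me2 domains all ran on by 18753 to 18760 kb. The longest block was thus limited by ESC Lamin B on one side and by ESC H3K9me2 on the other.

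Farther along the same Lamin B domains, past 3 shorter blocks and further breaks of ESC H3K9me2, lay the third-longest block, chr14:106380001-118173000, of 11.8 Mb. Both belonged to a group of 5 blocks inside 1 CM H3K9me2 domain, chr14:80180001-118180000. Within this domain the blocks held 87.2% of the sequence, 33.1 Mb. ESC H3K9me2 covered 92.9% of the domain and left it in 17 places, while ESC and CM Lamin B covered 98.7% and 99.1%. The remaining 3 blocks of the group were 1030 kb, 1020 kb and 560 kb long and were bounded by ESC H3K9me2 at both ends. At the distal end of the group the lists stopped close together, with CM Lamin B at the block end, ESC Lamin B 6 kb beyond it, CM H3K9me2 7 kb and ESC H3K9me2 77 kb.

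The second-longest block, chr4:66069001-80450000 of 14.4 Mb, showed the converse at its lower end. There the ESC Lamin B domain ended, whereas CM Lamin B ran on by 2346 kb, ESC H3K9me2 by 2819 kb and CM H3K9me2 by 2849 kb. At its upper end ESC H3K9me2 stopped first, the Lamin B domains followed after 55 kb in ESC and 59 kb in CM, and CM H3K9me2 ran on by 1490 kb. The block at chr15:13149001-24940000, of 11.8 Mb, had a compact lower end where all 4 edges fell within 39 kb. Its upper end lay at the ESC H3K9me2 edge, with the other 3 edges 215 to 260 kb beyond.

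A pair of blocks on chromosome 1, chr1:96003001-106870000 of 10.9 Mb and chr1:108760001-119880000 of 11.1 Mb, faced each other across 1890 kb in which only ESC H3K9me2 was broken. The remaining 4 of the 10 longest were chr2:39267001-48660000, chr5:54657001-63981000, chr12:42750001-52038000 and chr3:69984001-78694000, from 8.71 to 9.39 Mb. ESC Lamin B ended at the lower end of 3 of these 4 and at the upper end of 2. In the fourth, on chromosome 12, ESC H3K9me2 ended at the lower end and the other lists ran on by 70 to 72 kb.

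**Figure D2:**
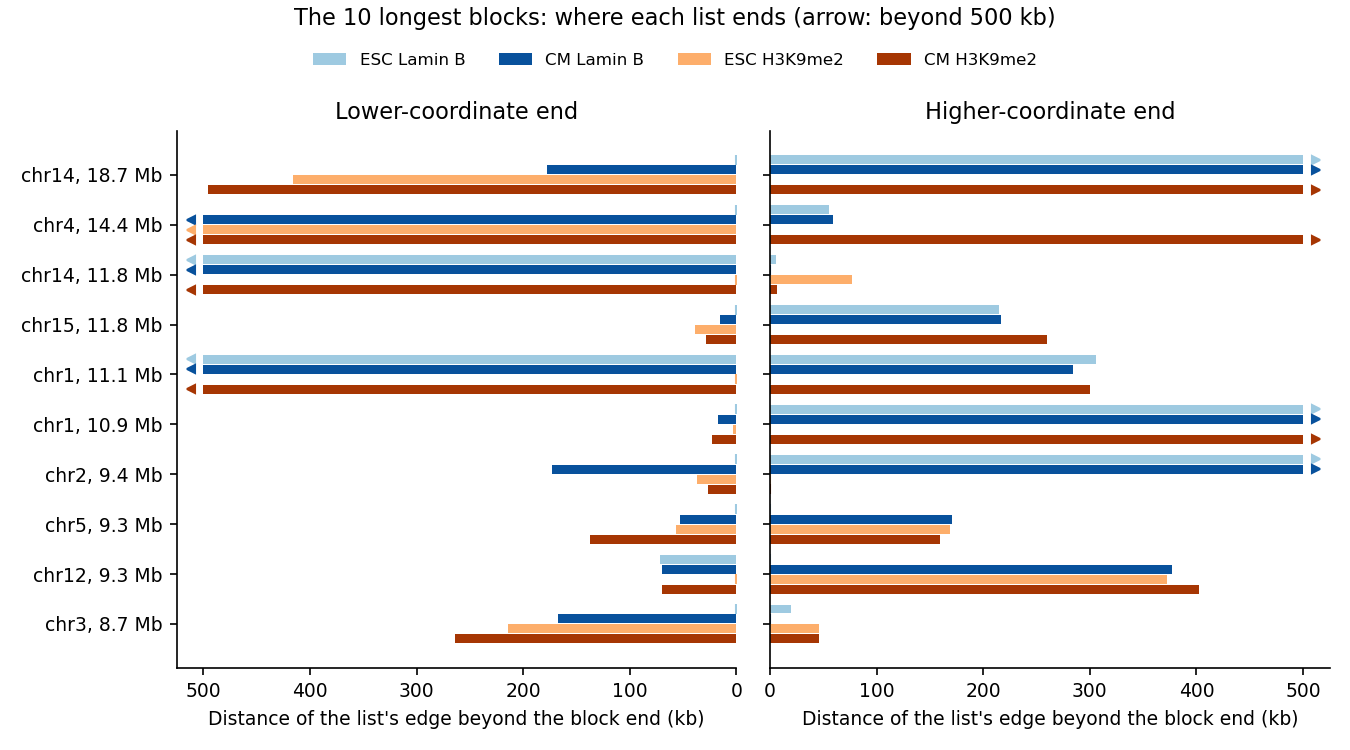
The 10 longest blocks, from top to bottom, with the distance in kb from each block end outward to the edge of the domain of each list, for the end at the lower coordinate (left) and at the higher coordinate (right). A bar of length 0 is the list that ended there, and an arrow marks an edge beyond 500 kb; at 5 ends Lamin B of both cell types ran past that limit.

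The edges of the 4 lists rarely coincided at block ends. Of the 762 block ends, 99 (13.0%, Wilson 95% interval 10.8 to 15.6) had the edges of all 4 lists within 20 kb, the widest bin of the lists, and 254 (33.3%) had them within 100 kb. At 224 ends (29.4%) at least 1 list ran on by more than 1 Mb. Only 11 of the 381 blocks had all edges within 20 kb at both ends. The most sharply bounded was chr7:114940001-116060000, a block of 1.12 Mb with all lower edges within 1 kb and all upper edges within 10 kb. The next were chr10:96228001-98360000 (2.13 Mb, edges within 9 and 13 kb) and chr17:18054001-21076000 (3.02 Mb, edges within 14 and 4 kb).

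In the lists as deposited, the one that ended at a block end was most often ESC H3K9me2. It ended at 322 of 762 ends (42.3%, Wilson 95% interval 38.8 to 45.8), ESC Lamin B at 235 (30.8%, 27.7 to 34.2), CM Lamin B at 147 (19.3%, 16.6 to 22.2) and CM H3K9me2 at 108 (14.2%, 11.9 to 16.8). These intervals treat ends as independent, which ends of 1 domain are not. A single list ended at 718 of the ends (94.2%), and with edges within 20 kb counted as tied this was 419 (55.0%). Exact ties are limited by the unequal bins, and 32 of the 44 ties were between the H3K9me2 lists, whose bins of 10 and 20 kb share a grid. The ESC H3K9me2 list is also the most divided, with 2431 autosomal domains against 1140 for CM H3K9me2, 708 for ESC Lamin B and 826 for CM Lamin B. After joining the domains of each list across gaps of 100 kb or less, ESC H3K9me2 ended at 32.9% of 836 block ends and ESC Lamin B at 34.9%. Joining across 20 kb or less gave 39.6% and 32.4% of 788 ends. The part of the division of the lists, of bin width and of depth in this order was not tested.

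**Figure D3:**
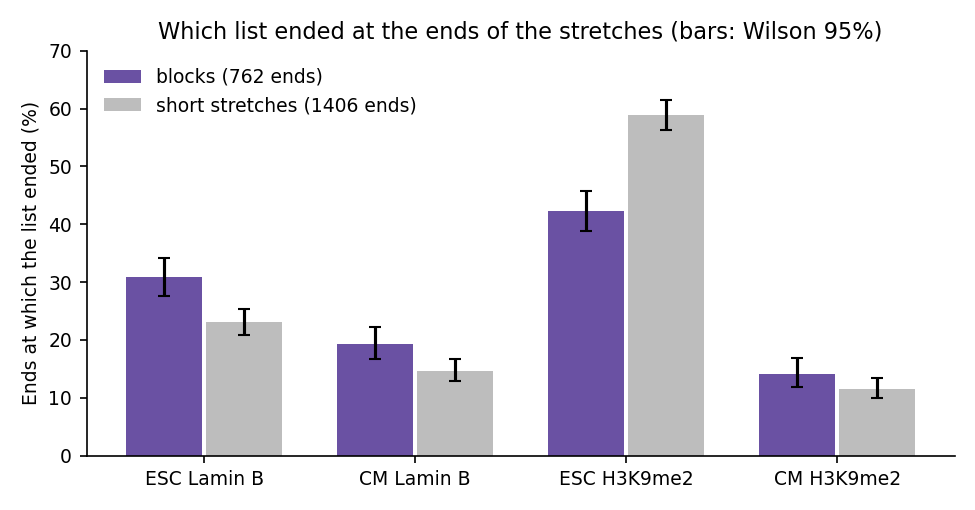
Percent of stretch ends at which each list ended, for the 762 ends of blocks (purple) and the 1406 ends of shorter stretches (grey), with Wilson 95% intervals; a tied end counts for each list. ESC H3K9me2 is the tallest bar in both sets, at 42.3% and 59.0%.

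At the shorter stretches ESC H3K9me2 ended more of the ends, 829 of 1406 (59.0%), and ESC Lamin B fewer, 324 (23.0%). Since length chose both sets and a list with many breaks cuts stretches short, this difference is a description and was given no test. In the same way, a Lamin B edge lay within 20 kb at both ends of 165 blocks (43.3%), at 1 end of 145 and at neither end of 71 (18.6%), against 253, 195 and 255 of the 703 shorter stretches. The 71 blocks with no Lamin B edge nearby lay inside longer lamina domains and were limited at both ends by H3K9me2. Their median length was 1250 kb, close to the 1161 kb of blocks with a Lamin B edge at both ends.

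Beyond the block ends the CM domains mostly reached as far as the ESC domains or farther. The median distance from a block end to the domain edge was 15 kb for ESC Lamin B and 77.5 kb for CM Lamin B. For H3K9me2 it was 6 kb in ESC and 129.5 kb in CM. These medians include the ends at which the list itself stopped, so they partly repeat the counts of which list ended. Where the list ran on past the block end, the median was 106 kb for ESC Lamin B and 178 kb for CM Lamin B. For H3K9me2 it was then 45 kb in ESC and 184 kb in CM. CM Lamin B reached more than 20 kb farther than ESC Lamin B at 279 ends (36.6%), ESC Lamin B farther at 119 (15.6%), and at 364 (47.8%) the edges lay within 20 kb. Where CM Lamin B went farther the median extra was 178 kb, and where ESC Lamin B did it was 129 kb. For H3K9me2 the CM domain reached farther at 410 ends (53.8%) and the ESC domain at 31 (4.07%), with 321 (42.1%) within 20 kb. Both CM lists ran on by more than 100 kb at 282 ends, and both ESC lists at 30. A break of any size ends a domain in this measure, so the H3K9me2 distances carry the finer division of the ESC list. After joining across gaps of 100 kb or less, CM H3K9me2 still reached farther at 369 of 836 ends, but ESC H3K9me2 did so at 105, and the counts for Lamin B were 317 and 139.

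Lamin B and H3K9me2 differed in a similar way within CM. H3K9me2 reached more than 20 kb past the Lamin B edge at 344 ends (45.1%) and Lamin B past H3K9me2 at 157 (20.6%). In ESC the order was the other, with H3K9me2 farther at 215 ends (28.2%) and Lamin B farther at 298 (39.1%). The excess was larger where Lamin B was the one to run on, with a median of 1114 kb in ESC and 914 kb in CM, against 128 kb and 121 kb where H3K9me2 did. A break of any size ends a domain here too, and ESC H3K9me2 had 2431 autosomal domains against 708 for ESC Lamin B. The part of this division in the ESC order and in the excess was not tested. Coverage, which such breaks do not stop, was 41.1% for ESC H3K9me2 and 48.6% for ESC Lamin B at 20 kb outside the blocks. At 100 kb it was 44.7% and 39.9%, and at 500 kb 46.6% and 40.5%.

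Coverage in the flanks does not depend on whether a domain is broken in between. It does start from the counts of which list ended, since a list that ended is absent just outside the block. In the first kb ESC Lamin B covered 69.2% of the ends, CM Lamin B 80.7%, ESC H3K9me2 57.7% and CM H3K9me2 85.8%. Values close to the ends thus partly repeat those counts. At 50 kb outside the blocks, ESC Lamin B covered 43.9% of the ends, CM Lamin B 56.7%, ESC H3K9me2 44.3% and CM H3K9me2 67.2%. At 500 kb the values were 40.5%, 45.6%, 46.6% and 53.4%, near the shares of the whole autosomal span in these lists, which were 42.4%, 45.9%, 50.9% and 54.2%. At 100 kb outside the blocks both CM lists thus lay above their span-wide share, at 52.1% and 59.9%, and both ESC lists below theirs, at 39.9% and 44.7%. This distance is not where the curves cross their shares. ESC H3K9me2 was below its share at 20 kb already, and CM Lamin B was still above its own at 200 kb, at 47.9%. Sequence in no list rose from 19.1% at 50 kb to 35.3% at 200 kb and 37.1% at 500 kb. Around the shorter stretches coverage stayed higher, at 55.9%, 61.1%, 57.0% and 64.0% in the same order at 500 kb. The ESC H3K9me2 curve fell to 41.1% at 20 kb outside the blocks and was 44.3% at 50 kb, 48.2% at 81 kb and 40.1% at 157 kb. It moved in steps at multiples of 10 kb, the bin width of this list, as from 41.1% at 20 kb to 45.0% at 21 kb.

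**Figure D4:**
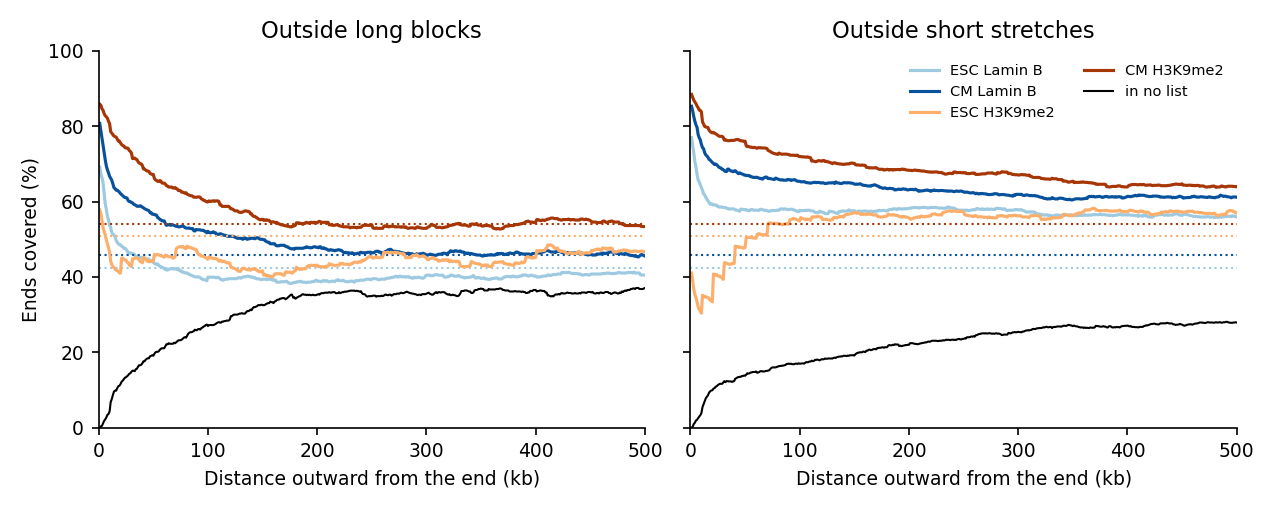
Percent of ends covered by each list, and by none (black), at each distance in kb outward from the ends of blocks (left) and of shorter stretches (right), with dotted lines at each list's share of the autosomal span. The CM curves run above the ESC curves of the same antibody; outside the blocks at 50 kb CM H3K9me2 is at 67.2% and ESC H3K9me2 at 44.3%.

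Most gaps between neighbouring blocks broke the Lamin B lists of both cell types, not necessarily at the same place. Of the 362 gaps between consecutive blocks on a chromosome, 262 (72.4%, Wilson 95% interval 67.6 to 76.7) broke both Lamin B lists, with a median gap of 3104 kb and 64.2% of their sequence in no list. In 68 gaps (18.8%, 15.1 to 23.1) both Lamin B lists ran through unbroken, and these gaps were shorter, with a median of 575 kb and 43.3 Mb in all. The remaining 32 kept 1 Lamin B list, CM in 20 and ESC in 12.

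In the 68 gaps at constant lamina the missing mark was mostly that of ESC. In 42 of them ESC H3K9me2 was the only list broken, with a median of 465 kb and a range of 30 to 1890 kb. Over these gaps together ESC H3K9me2 covered 44.9% of the sequence. It covered part of 32 of them and none of the other 10, which were up to 250 kb long. In 24 both H3K9me2 lists were broken, and in 2, of 220 and 240 kb, CM H3K9me2 alone. The reverse arrangement, with both H3K9me2 lists unbroken, was found in only 4 gaps, where by definition at least 1 Lamin B list was broken. ESC H3K9me2 ran unbroken through 6 of all 362 gaps, and CM H3K9me2 through 61. The part of the finer division of the ESC H3K9me2 list in this was not tested.

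Very short gaps seldom parted a pair of blocks. None of the 362 gaps was 20 kb or shorter, and 5 were 100 kb or shorter. Of these 5, chr3:133890001-133920000 (30 kb), chr9:91240001-91320000 (80 kb) and chr11:28470001-28520000 (50 kb) were breaks of ESC H3K9me2 alone, chr2:14930001-15000000 (70 kb) broke both H3K9me2 lists, and chr7:58203001-58239000 (36 kb) was a break of ESC Lamin B alone. Yet 425 of the 2412 gaps in the autosomal ESC H3K9me2 list (17.6%) were 20 kb or shorter, and the shortest measured 10 kb. Between ESC H3K9me2 domains that were both at least 500 kb long, 2 of 88 gaps were that short. The sources used here do not say how the domain caller joins neighbouring domains, so the sizes of these gaps may follow its settings.

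By the rule, every domain with a block was at least 500 kb long, so the lengths and scores of these domains are a description. Those holding a block were 301 of 708 autosomal ESC Lamin B domains, 293 of 826 CM Lamin B domains, 375 of 2431 ESC H3K9me2 domains and 320 of 1140 CM H3K9me2 domains. The authors' score, which has no stated scale and grows with length, put the domains with a block at a median percentile of 78.7, 82.0, 92.3 and 85.2 of their own list in that order. The lowest percentiles were 37.4, 35.8, 65.0 and 52.7. A block filled a median of 89.2% of its ESC Lamin B domain, 69.7% of its CM Lamin B domain, 98.2% of its ESC H3K9me2 domain and 74.4% of its CM H3K9me2 domain. For 82 blocks the block and the ESC H3K9me2 domain were the same interval, and for 47 the block equalled the ESC Lamin B domain.

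Most lamina domains with a block held 1, 257 of 301 in ESC and 239 of 293 in CM. The other 44 ESC Lamin B domains together held 124 blocks (32.5%), and the other 54 CM Lamin B domains 142 (37.3%). Among CM H3K9me2 domains 41 held 102 blocks, whereas only 6 ESC H3K9me2 domains held more than 1, with 12 blocks. The ESC and CM Lamin B domains at chr6:8910001 ran for 19161 and 19162 kb and held 7 blocks of 15.3 Mb in all. The CM H3K9me2 domain around them, chr6:8480001-28080000, held the same number and 15 shorter stretches, and ESC H3K9me2 covered 87.4% of it with 22 breaks. Another 7 blocks lay in the CM Lamin B domain chr4:12111001-31328000.

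Most long domains contained a block, CM H3K9me2 domains least often. Of the domains of at least 1 Mb, 208 of 219 (94.98%) in the ESC Lamin B list held a block, 225 of 242 (93.0%) in CM Lamin B, 255 of 270 (94.4%) in ESC H3K9me2 and 263 of 320 (82.2%) in CM H3K9me2. The 57 long CM H3K9me2 domains without a block came to 81.2 Mb. ESC H3K9me2 covered 77.4% of that sequence, CM Lamin B 50.5% and ESC Lamin B 28.3%. The longest of them, named after its values were seen, was chr12:25940001-29260000, with 78.9% ESC H3K9me2, 38.8% CM Lamin B and 0% ESC Lamin B coverage.

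The share of an autosome in blocks ranged from 19.4% to 41.3%, with a mean of 32.2 ± 6.96% (SD over 19 chromosomes, which are not replicates). Chromosome 1 had the highest share, with 36 blocks and 80.1 Mb, and chromosomes 6 and 3 followed at 40.9% and 40.8%, which is too close to be called an order. Chromosome 19 had the lowest, with 9 blocks and 11.3 Mb, after chromosomes 9, 7, 13 and 11 at 22.2% to 23.4%. No autosome lay between 23.4% and 30.2%. On chromosome 13 the sequence inside all 4 lists was the most broken up, since 72.2% of it was in blocks against 92.6% on chromosome 8. Chromosome 3 had the most blocks for its length, 23.6 per 100 Mb, and chromosome 5 the fewest, 9.37.

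**Figure D5:**
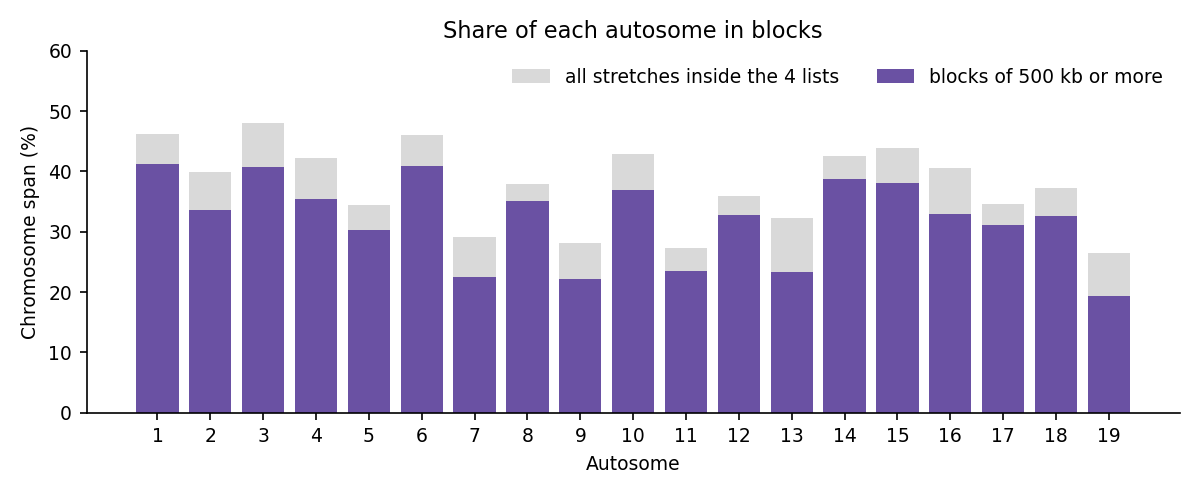
Percent of the span of each autosome in blocks (purple) and in all stretches inside the 4 lists (full height, grey above purple). Chromosomes 7, 9, 11, 13 and 19 are below 24% in blocks and the other 14 above 30%.

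Along the chromosomes the blocks were least frequent toward the distal end. With each autosome cut into 5 equal parts from the lower coordinate, which in the mouse is the centromeric end, blocks held 33.1%, 35.9%, 38.6%, 36.2% and 21.0% of the sequence. The last part was the poorest on 10 of 19 chromosomes and the richest on 1. The highest share of a last part in blocks was 68.5%, on chromosome 14. All 4 lists were lower in the last part, ESC Lamin B at 29.9% against 43.4% to 46.7% in the others and CM H3K9me2 at 42.4% against 55.3% to 59.4%. A block lay within 100 kb of the last domain edge on 4 chromosomes, 13, 14, 17 and 18, and within 100 kb of the first on 2, 1 and 10.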

How the data were processed

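Values came from 4 domain lists, 1 per cell type and antibody. STAR, Picard and deepTools, without versions, and the build mm9 are named per the submitters' processing notes. The track settings are g 10, automatic bins and a false discovery rate of 5%, per the file headers, and no source used here names the domain caller. The deposited score of each domain is the authors' own value, used only to rank or filter within a list. Lists were placed on a 1 kb grid over 19 autosomes with Python 3.11.15, numpy 2.4.6, pandas 2.3.3, scipy 1.17.1 and matplotlib 3.10.9. Block finding was tested on simulated lists, where 300 of 300 planted stretches were returned. Each planted stretch had its own domain in every list, so domains that hold more than 1 block were not simulated. Libraries were grouped by their titles. No test was made, because the lists have no replicates and chose the members, and depth is unknown. Blocks and lists were chosen with earlier results of these data known. Named blocks are the 10 longest, those nearest the threshold, the most sharply bounded, while other blocks, gaps and domains named in the text were picked after their values were seen. The reference tables supplied are of another build, GRCm38, so genes and sequences of the blocks are not given. Alternatives varied length, grid, merging, score, trimming and the lists required.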

Additional observations from a re-analysis of the deposited data

Results flagged for a closer look

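The X chromosome lies outside the rule, so this is an observation in data that the comparisons did not use. The same length threshold was met there by 31 of 138 stretches inside all 4 lists, against 381 of 1084 (35.1%) on the autosomes. These 31 held 69.9 Mb, 42.8% of the X span and 79.7% of the X sequence inside all 4 lists, with a median length of 1600 kb. The longest was chrX:110420001-120123000, 9.70 Mb. ESC H3K9me2 ended at 44 of their 62 ends (71.0%), CM H3K9me2 at 13, ESC Lamin B at 7 and CM Lamin B at 5. On the autosomes ESC H3K9me2 ended at 42.3% of ends. The difference between X and the autosomes was not tested.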

How the results depend on the processing

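The results compared across settings were the number and sequence of blocks, the lists that ended at block ends, the gaps at constant Lamin B, the shares of chromosomes 1 and 19 and the edge distances. Counts, sequence, chromosome shares and distances were held to 1.5 times the value as reported, and percents of ends and gaps to its Wilson interval. Of 66 alternative values, all planned, 57 stayed within these limits and 9 did not. Some of the 57 could not move, so the count of 57 is no measure of stability. Limiting the search for edges to a distance well above the median edge distances cannot change these medians, and they stayed the same. Starting the span at a fixed coordinate left the share of chromosome 1 at 41.3%, as reported. By construction, a minimum of 1000 kb left 225 blocks and 12.4% of chromosome 19, and edges within 10 kb in place of 20 kb left 7.09% of ends with all 4 lists together. On a common 20 kb grid, which makes more ties, ESC H3K9me2 ended at 56.4% of ends and a Lamin B list at 59.4%, and with edges tied within 20 kb at 64.8% and 62.3%. Merging domains across gaps of 100 kb or less gave 32.9% and 56.6%, against 42.3% and 49.5% as deposited. Leaving out 1 list gave 366 to 410 blocks. Under 6 of the 7 settings of length, grid, merging, score and trimming ESC H3K9me2 ended at more block ends than any other list, and merging across 100 kb put ESC Lamin B ahead. Trimming took the same length off every domain end, and the length settings only changed which stretches were counted. Neither could readily change the order of the lists, so the count of 6 is no measure of its stability. Gaps with ESC H3K9me2 as the only broken list numbered 42, and 66 and 21 at minimum lengths of 300 and 1000 kb. Leaving out libraries or pairing them was not possible, as the lists hold no value per library. The share of genes or GC content in blocks was planned but not run, since the references supplied are of another build.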
